A study of Mus musculus with 10 samples.

Results

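Microglia of the mouse paraventricular thalamus (PVT) were taken as the nuclei whose deposited cluster name contains the word microglia, which gave 993 of 20503 nuclei. The names come from the clusters of the study, set on the same genes that are described here, so the differences from the other clusters describe the microglia and do not test them. The study sequenced single nuclei (snRNA-seq, 10x Chromium 3' v3) from fresh tissue punches of the PVT and the tissue around it, in untreated C57BL/6J mice of 12 weeks. There were 10 libraries, each a pool of several mice, 4 named biol_rep and 6 named female_biol_rep. The deposited nucleus table gives the first 4 as male, and they are called male 1 to 4 here, beside female 1 to 6. No transgene, mutant allele or agent is named for any group. The other nuclei were 10410 neurons, 5302 astrocytes, 2462 oligodendrocytes, 473 oligodendrocyte precursor cells (OPCs), 469 ependymal cells, 215 endothelial cells and 179 fibroblasts.

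Microglia are the resident macrophages of the brain. They arise from yolk sac progenitors, renew themselves in place and depend on the CSF1 receptor, which is bound by CSF1 and IL-34. Their identity in the adult brain is kept by TGF-beta signalling and by transcription factors such as PU.1, SALL1 and MEF2C. They survey synapses through fine processes, sense neuronal ATP and fractalkine through purine receptors and CX3CR1, and take up debris, synapses and dying cells with the help of complement. A nucleus holds newly made transcripts rich in introns and little of the mRNA of the cytoplasm.

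The microglia held between 27 and 348 nuclei per library. Male 1 to 4 gave 27, 64, 161 and 348 microglia, and female 1 to 6 gave 57, 58, 82, 59, 82 and 55. As a share of all nuclei these were 3.02%, 7.31%, 4.01% and 4.82% in male 1 to 4 and 4.13%, 5.04%, 6.77%, 5.62%, 5.08% and 5.02% in female 1 to 6. Male 2 was the highest and male 1 the lowest, and the female libraries lay between them. This order turned when nuclei were limited to 1% mitochondrial UMIs. Male 2 was then the lowest library, at 0.875%, male 3 the highest, at 3.96%, and the mean was 2.83%. The mean share was 5.08% ± 1.27 (SD, n = 10 libraries), and of the nuclei that were not neurons it was 10.4% ± 2.42. The exact binomial 95% interval, which covers counting error only, was 2.00% to 4.36% in male 1 and 5.68% to 9.24% in male 2. The mean share was 4.79% ± 1.84 in the 4 male and 5.28% ± 0.876 in the 6 female libraries, and the difference of 0.487 percentage points was within the spread between libraries (exact permutation test, two-sided, p = 0.585). Without male 1 the difference was -0.104 points, and without male 2 it was 1.33 points.

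The depth of microglial nuclei varied between libraries. Male 1 to 4 had a median of 2525, 4348.5, 2796 and 1774 UMIs per microglial nucleus, where a UMI is one counted transcript molecule. Female 1 to 6 had 1840, 2097, 2535, 2034, 2741.5 and 1466. Male 2 stood above all the others, and the sexes overlapped (log2 difference -0.39, female minus male; exact permutation test, two-sided, p = 0.209). Without male 2 the log2 difference was -0.16. Summed over microglia, the libraries held between 92857 and 816326 UMIs, with the fewest in male 1 and the most in male 4, so levels in male 1 are the least precise.

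**Figure D1:**
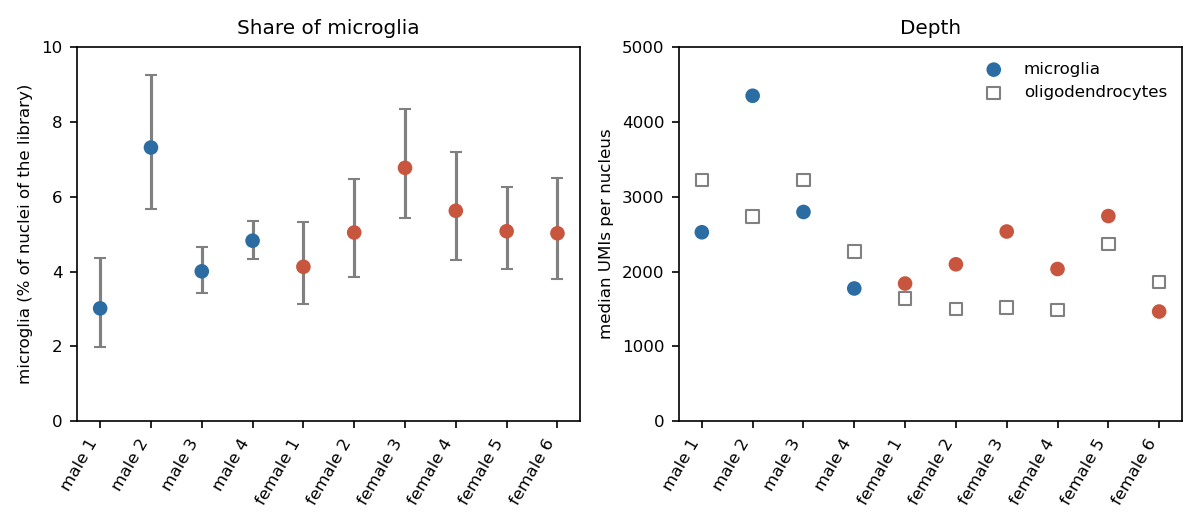
Share of microglia among the nuclei of each library (left, %, bars give the exact binomial 95% interval) and median UMIs per nucleus (right; filled circles microglia, open squares oligodendrocytes; blue male, red female). Male 2 was the highest on both axes for microglia, at 7.31% and 4348.5 UMIs.

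Male 1, 3 and 4 stood apart from male 2 and the female libraries in other ways. The mitochondrial percentage that the nucleus table holds for each microglial nucleus had a median of 0.333, 1.77, 0.519 and 0.960 in male 1 to 4 and 1.23 to 1.94 in the 6 female libraries. The count matrix itself holds no UMI of a mitochondrial gene in male nuclei, so this percentage could be recounted for the female nuclei only. Genes with a span under 10 kb took 7.71%, 19.8%, 13.8% and 9.44% of microglial UMIs in male 1 to 4 and 17.3% to 22.6% in the female libraries. The same order was present in oligodendrocytes, at 10.1%, 23.3%, 17.8% and 11.2% against 18.7% to 25.5%. Male and female nuclei were also counted on different gene annotations, and several microglial genes, Irf8, Itgam, Myd88 and Tlr9 among them, had counts in the male libraries only and were left out of the fit over both sexes. Irf8, a transcription factor of microglia, and Itgam, the alpha chain of complement receptor 3, were fitted in the male libraries alone, with log2 differences from the other types of 10.04 ± 0.33 and 9.43 ± 0.24. Over all libraries, 46 barcode sequences were shared by more than 1 library, in 92 nuclei of which 5 were microglia.

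Cx3cr1, the fractalkine receptor and the marker of this cluster, was higher in microglia than in every other cell type in 10 of 10 libraries. Its level in the summed microglia, in CPM (the UMIs of a gene scaled to a common library total), was 695, 3701, 979 and 829 in male 1 to 4 and 2857, 2774, 2616, 2347, 3208 and 2936 in female 1 to 6. Male 2 was the highest of all and the other male libraries were below every female library. The highest level elsewhere was 64.3 CPM, in ependymal cells, and the fitted log2 difference from the mean of the other 7 types was 6.81 ± 0.16 (SE). After each nucleus was thinned to 1000 UMIs, a Cx3cr1 UMI was held by 672 of 950 microglia (70.7%; mean over libraries 75.4% ± 10.6, n = 10) and by 41 of 2314 oligodendrocytes (1.77%; mean over libraries 1.94% ± 1.61). Oligodendrocytes should lack the receptor, so their share was taken as the background, whose source was not tested.

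The label was compared with the 16 markers listed for it, Cx3cr1 included. All 16 of 16 markers were called higher in microglia than the mean of the other types and higher than each of them. Across the 9417 genes tested, 22.9% were called higher and 27.5% lower than the mean of the other types (edgeR, adjusted p under 0.05 and a log2 difference past 0.5), and 8.54% were called higher than every other type. The median log2 difference was 8.41 over the 16 markers and -0.10 over all genes tested. A gene held by microglia alone was tested only if microglia held enough counts, which favours its call as higher. This applies here and to the lists below. Csf1r, the growth factor receptor on which microglia depend, was at 872 to 2042 CPM (median 1619) against 11.2 in fibroblasts. P2ry12, an ADP receptor that guides microglial processes, was at 568 to 1759 CPM (median 1528) against 70.9 in neurons. In both the lowest microglial library was still above the highest mean of another type. Sall1, a transcription factor that among brain macrophages marks microglia, was at 259 ± 80.0 CPM (n = 10) against 28.6 in oligodendrocytes. Fcrls, Siglech, P2ry13, Selplg, Tmem119 and Trem2 had fitted log2 differences of 9.69, 9.03, 8.99, 8.90, 8.82 and 8.65.

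Several receptors and signalling proteins were among the genes furthest from the other types. Vav1, an exchange factor that couples immune receptors to Rac (chr17:57279100-57328031, plus strand, GRCm38), had the largest fitted log2 difference of the 9417 genes in the fit over both sexes, 10.00 ± 0.22. Its level was 215, 301, 199 and 162 CPM in male 1 to 4 and 242, 284, 193, 197, 276 and 208 in female 1 to 6, with no separation of the sexes, and the highest mean elsewhere was 1.06 CPM, in ependymal cells. Next among the genes above every other type in all 10 libraries came Susd3 (9.80 ± 0.27), Fcrls, Pik3cg (9.60, the catalytic subunit of PI3-kinase gamma), Cd86 (9.55, a costimulatory ligand for T cells), P2ry6 (9.46, the UDP receptor that triggers uptake), Csf2rb (9.39, the shared beta chain of the GM-CSF receptor), Upk1b (9.39), Tlr7 (9.34, the sensor of single-stranded RNA), Tg (9.33), Csf3r (9.30, the G-CSF receptor) and Gm40645 (9.21). Where another type held no UMI of such a gene, the fitted difference depends on the prior count of the fit, and its size should be read beside the CPM. Tg (chr15:66670753-66850721) lies over Sla on the opposite strand, and Gm40645 (chr10:51489530-51522447) lies over Lilrb4a, so reads of these pairs may have been shared. In all, 804 genes were higher than in every other type and 529 of them in each of the 10 libraries (331 were higher than in every other type when nuclei were limited to 1% mitochondrial UMIs), and 111 (1.18%) were lower than in every other type.

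The promoters of Vav1, of the complement gene C1qc and of the protease gene Ctss are shown because all 3 genes are highest in microglia. They also hold the letters GAGGAAGT, a pattern of PU.1 sites, on 1 of the strands. The sequences run from 250 bases before to 50 after the start given by RefSeq (GRCm38.p6), 5′ to 3′ on the strand of the gene, with each GAGGAA, or TTCCTC where it is on the other strand, in capitals.
Vav1, chr17:57278850-57279149, plus strand: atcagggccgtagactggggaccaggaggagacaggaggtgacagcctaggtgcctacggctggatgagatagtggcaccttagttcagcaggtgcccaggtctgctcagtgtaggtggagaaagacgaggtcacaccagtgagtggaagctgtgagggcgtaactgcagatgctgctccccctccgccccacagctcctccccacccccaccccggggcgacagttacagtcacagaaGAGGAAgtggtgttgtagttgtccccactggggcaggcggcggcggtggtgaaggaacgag
C1qc, chr4:136892865-136893164, minus strand: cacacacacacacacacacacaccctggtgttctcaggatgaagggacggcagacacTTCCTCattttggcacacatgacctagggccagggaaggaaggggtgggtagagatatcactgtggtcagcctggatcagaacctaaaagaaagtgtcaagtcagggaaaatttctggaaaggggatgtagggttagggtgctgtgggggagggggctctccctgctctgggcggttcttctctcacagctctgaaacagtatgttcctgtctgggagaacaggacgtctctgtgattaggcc
Ctss, chr3:95526536-95526835, plus strand: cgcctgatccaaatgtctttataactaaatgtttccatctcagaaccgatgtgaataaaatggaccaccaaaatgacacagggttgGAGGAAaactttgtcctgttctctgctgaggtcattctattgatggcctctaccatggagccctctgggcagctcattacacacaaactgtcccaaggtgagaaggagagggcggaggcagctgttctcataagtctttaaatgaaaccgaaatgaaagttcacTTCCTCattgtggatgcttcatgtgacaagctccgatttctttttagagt

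GAGGAAGT, on either strand, was present in 55 of the 641 promoters found for genes highest in microglia (8.58%), against 256 of 7383 promoters of the genes tested (3.47%) and 997 of all 27025 (3.69%). The shorter GAGGAA, which lies within it, was in 40.7%, 30.9% and 31.3%. The pattern of interferon regulatory factors, GAAA, any 2 bases and GAAA, was in 4.37%, 3.68% and 3.99%. GGGCGG, the GC box, was in 67.9% of the promoters of genes highest in microglia and in 69.4% of those tested. The longer PU.1 pattern was the one whose share differed most from the tested genes by ratio. The genes were chosen on the values described above, so these shares are a description with no test, and a match is not a bound site. Of the 16 markers, 10 had a promoter in the table, and among these only Ctss and C1qc held GAGGAAGT.

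**Figure D2:**
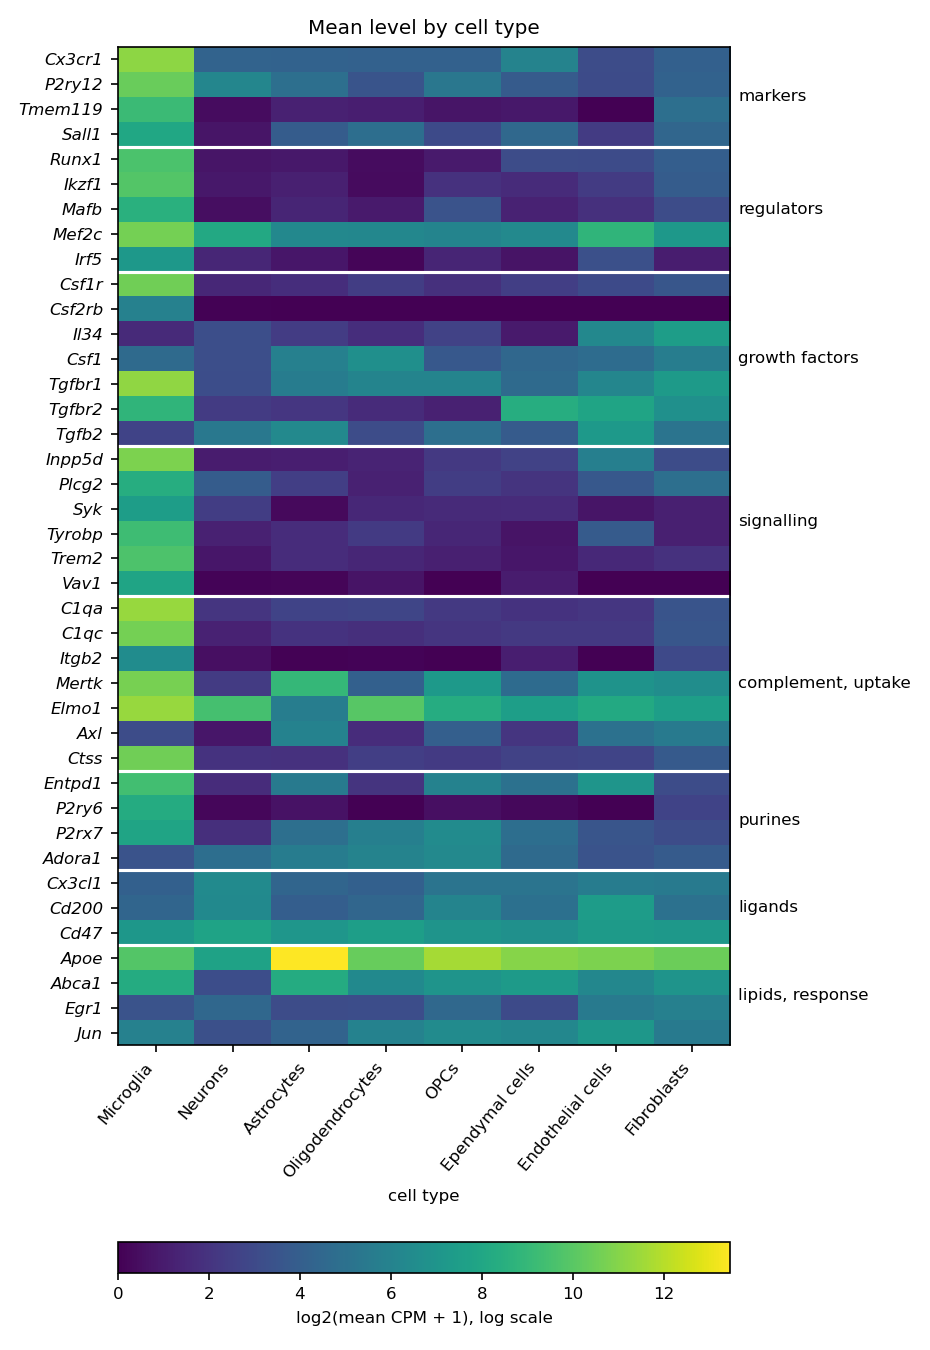
Mean level of genes (rows, grouped by role) in microglia and in the other 7 cell types (columns), as log2(mean CPM + 1) over libraries on a log colour scale. Markers, regulators and signalling genes were brightest in the microglia column, whereas Apoe, Il34, Tgfb2, Cx3cl1, Cd200 and Cd47 were brighter in other types.

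All 18 tested of 20 transcription factors listed for microglia were called higher, and 11 were higher than in every other type, with a median log2 difference of 4.29. Runx1, a regulator of blood and yolk sac lineages, was even over the libraries: 1018, 958, 758 and 757 CPM in male 1 to 4 and 783, 796, 675, 747, 706 and 732 in female 1 to 6, against 15.3 in fibroblasts. Ikzf1, a zinc finger factor of blood cells, was at 928 ± 113 CPM and Spi1, which encodes PU.1, at 333 ± 104 CPM. Mef2c and Mef2a were at 1617 ± 197 and 1553 ± 331 CPM, against 440 in endothelial cells and 425 in neurons. Fli1 was the exception among the abundant members, with 830 CPM in microglia and 737 in endothelial cells, so it was not called higher than every type. Klf2, a factor known from endothelium, was at 16.5 CPM in microglia and 490 in endothelial cells.

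The list of CSF1 and related colony-stimulating factor receptors had 6 tested members. The 4 called higher were the receptor genes Csf1r, Csf2rb, Csf3r and Csf2ra, and the other members were the ligands of CSF1R. Il34 was called lower (log2 difference -2.10 ± 0.63), with 2.04 CPM in microglia and 179 in fibroblasts, and Csf1 was not called (-0.40), with its highest mean in oligodendrocytes at 103 CPM. In the TGF-beta system 10 of 14 tested members were called higher and 3 lower. Tgfbr1, the type I receptor, was at 1684 to 2988 CPM (median 2307) against 161 in fibroblasts. Tgfb1 was at 245 ± 86.7 CPM against 47.7 in endothelial cells, and Nrros, which holds latent TGF-beta 1 on microglia, had a log2 difference of 5.32. Tgfb2, Tgfbr3 and Itgb8 were called lower (-2.08, -3.27 and -2.68). Itgb8, the integrin subunit that activates latent TGF-beta, was at 241 CPM in astrocytes. Smad4 was not called (0.03).

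Of 10 tested purine receptors and ectoenzymes, 6 were called higher and 4 lower. All 6 members called higher were also higher than in every other type. Besides P2ry12, P2ry13 and P2ry6 they included P2rx7, the ATP-gated channel, at 168 to 268 CPM (median 236) against 90.5 in OPCs, and Entpd1, the ectoenzyme CD39 that breaks down ATP, at 480 to 1015 CPM (median 603) against 128 in endothelial cells. The 4 members called lower were Nt5e, which makes adenosine from AMP (-1.78), the adenosine receptors Adora1 (-1.22) and Adora2b (-3.25), and P2ry14 (-1.77). Adora3, another adenosine receptor, had counts in male libraries only and a log2 difference of 8.33 ± 0.72 in a fit of those libraries alone.

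All 21 members of the ITAM and Fc receptor list were called higher, and 20 were higher than in every other type, with a median log2 difference of 7.57. Inpp5d, the phosphatase SHIP1 that restrains these receptors, was at 1424 to 2213 CPM (median 1824) against 54.3 in endothelial cells. Apbb1ip, an adaptor of integrin activation, was at 1292 ± 251 CPM, Lyn, a Src-family kinase, at 1246 ± 254 CPM, and Dock8, a Cdc42 exchange factor, at 1083 ± 188 CPM. Rasgrp3 was the member not called against every type, with 439 CPM in microglia and 401 in endothelial cells. In the complement list 6 of 8 tested members were called higher and all 6 against every type, among them the 3 C1q chains, C3ar1, the receptor of C3a (6.96), and Itgb2, the beta chain of complement receptor 3 (7.84). Cd46 and Cd55, which protect cells from complement, were not called (-0.37 and -1.23).

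Of 20 tested genes of phagocytosis and the lysosome, 17 were called higher and 13 against every type. Elmo1, an engine of engulfment with DOCK proteins, was at 2171 to 3243 CPM (median 2615) against 983 in oligodendrocytes. Mertk, which binds dying cells through PROS1 and GAS6, was at 1364 to 1880 CPM (median 1765) against 503 in astrocytes. Pros1 had a log2 difference of 3.40 and Gas6 one of 0.61. Axl, the receptor related to Mertk, was not called (-0.42), nor were Lamp1 (0.18) and Tmem106b (-0.40), and Gpnmb had no UMI.

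All 10 tested of 22 genes of chemokines, cytokines and their receptors were called higher. Among them were Il10ra, the IL-10 receptor (8.48), and Tnfrsf1b, TNF receptor TNFR2 (7.25). Of the members not tested, 5 had low counts and 7 did not meet the limits on counts in each sex. Genes of microglia alone pass the count filter only where microglia hold them, so the shares called higher in these lists were favoured by the filter. Of the cytokines on the list, Il1b had 10 UMIs and Tnf 14 UMIs over all microglia, and neither was tested. All 10 tested of 17 Toll-like receptor and inflammasome genes were called higher, and 9 against every type. Ly86, a partner of CD180, was at 741 to 1439 CPM (median 1169) against 10.3 in ependymal cells. Among receptors that restrain microglia all 6 tested were called higher and against every type. They included Sirpa, which binds CD47, at 639 to 1041 CPM (median 782) against 207 in astrocytes, Lair1, a collagen receptor, at 624 ± 130 CPM, and Cd200r1, with a log2 difference of 8.52. Cd47, the ligand of SIRPA, had its highest mean in neurons (223 CPM), Cd200, the ligand of CD200R1, in endothelial cells (172 CPM), and Cx3cl1, the ligand of CX3CR1, in neurons (86.3 CPM). In microglia Cx3cl1 and Cd200 were called lower (both -1.06) and Cd47 was not called (-0.06). Of all 11 tested ligands of microglial receptors, 5 were called higher and 4 lower, against 22.9% and 27.5% of all genes tested. With 1 library left out, Pdgfb was at a log2 difference of 4.22 to 4.72 and Sema4d at 1.98 to 2.18.

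Lists known from activated microglia are read against the 8.54% of all tested genes that were called higher than every other type. For the 8, 9 or 10 tested genes of a list, a count of 0 is near that share. Of 18 genes of disease-associated microglia, 10 were tested, and none was higher than in every other type. Of these, 2 were called higher, 4 lower and 4 neither, against 22.9% higher and 27.5% lower over all genes tested. Their median log2 difference was -0.41. Of those not tested, 4 had low counts, 3 did not meet the limits on counts in each sex and 1 was not listed, so the median covers part of the list. Cd9, a tetraspanin, and Lpl, a lipase, were the higher ones (1.88 and 1.31). Apoe, the lipid carrier, was lower (-1.09 ± 0.20), at 206 to 3969 CPM (median 438) against 11266 in astrocytes. Of 20 interferon response genes 8 were tested, 6 were called higher, and none against every type, since endothelial cells were at similar or higher levels. Bst2 was at 37.3 ± 21.4 CPM in microglia and 64.5 in endothelial cells. Of 9 tested early response genes, 4 were called higher, led by Junb (2.88), and 3 lower, with Dusp1 at -1.36, and none was higher than in every type. All 5 tested genes of antigen presentation were called higher than the mean of the types, but only Cd86 against every type. B2m was at 39.2 to 447 CPM (median 316) against 319 in endothelial cells.

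All 11 tested lipid genes were called, 9 higher and 2 lower, against 22.9% and 27.5% of all genes tested. None was higher than in every type, which in 11 genes is near the 8.54% over all genes tested. Abca1, a cholesterol exporter, was at 309 ± 37.6 CPM in microglia and 311 in astrocytes. Of 9 tested ion channel genes 7 were called higher and 4 against every type. Kcnk13, the THIK-1 potassium channel known for its role in microglial surveillance, was at 177 to 431 CPM (median 251) against 331 in oligodendrocytes, so it was called against the mean of the types (4.56) but not against oligodendrocytes. Hvcn1, a proton channel, was at 62.1 ± 24.7 CPM against 1.08 in fibroblasts.

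The genes with the lowest fitted values had no UMI in any microglial nucleus. Against 3 UMIs over all microglia, or 1.08 CPM, which is what a count of 0 allows, Itm2a was at least 1207-fold lower than in endothelial cells, Abcb1a, an efflux pump of the blood-brain barrier, at least 919-fold, Slc16a12 at least 100.2-fold, Dcdc2a at least 221-fold lower than in ependymal cells and Gpx8 at least 33.2-fold lower than in fibroblasts.

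Markers of other cell types were measured in the same sums. The 6 neuronal markers summed to 3907, 323, 2175 and 4473 CPM in male 1 to 4 and 387, 2824, 1979, 980, 686 and 539 in female 1 to 6. Male 1 and male 4 were highest, and the mean was 9.55% of that in neurons, most of it Meg3, a long noncoding RNA of neurons. Astrocyte markers reached 3.63% of their level in astrocytes, OPC markers 2.78%, oligodendrocyte markers 1.15%, ependymal markers 0.626%, endothelial markers 0.308% and fibroblast markers 0.137%. The 6 T cell markers held 46 UMIs in all and 18.5 ± 22.8 CPM, with male 1 highest at 78.3 and Cd247 the most abundant at 11.1, while Cd3e, Cd3d and Cd3g were at 0. Markers of border-associated macrophages summed to 278 ± 118 CPM, of which Stab1, a scavenger receptor, made up 194. Stab1 was the 1 of 3 tested macrophage markers called higher (6.51), beside Colec12 (-2.03) and Dab2 (-0.16, not called). How much of any low level above came from free RNA or from nuclei stuck together was not tested.

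Some microglial genes were even over the libraries and others were low in male 1, 3 and 4. C1qa, a C1q chain with a short gene and an abundant mRNA, was at 127, 3378, 455 and 289 CPM in male 1 to 4 and at 4616, 3633, 3377, 3334, 4021 and 3360 in female 1 to 6. Tyrobp, the adaptor DAP12, was at 39.2, 688, 132 and 59.7 CPM in male 1 to 4 and at 815, 815, 757, 832, 1020 and 940 in female 1 to 6. Tmem119, a microglial surface protein, was at 147, 977, 325 and 229 against 807, 796, 708, 670, 665 and 478 CPM. In all 3, male 2 was near the female libraries and the other male libraries were below. Inpp5d, Runx1, Elmo1 and Mertk stayed within a narrow range in the same libraries, Mertk with 1655 ± 214 CPM. The summed level of the 16 markers was 7227, 29332, 11880 and 7699 CPM in male 1 to 4 and 24611 to 30687 in the female libraries. The share of short genes and the deposited mitochondrial percentage moved with it, as given above, and their part in these levels was not tested.

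**Figure D3:**
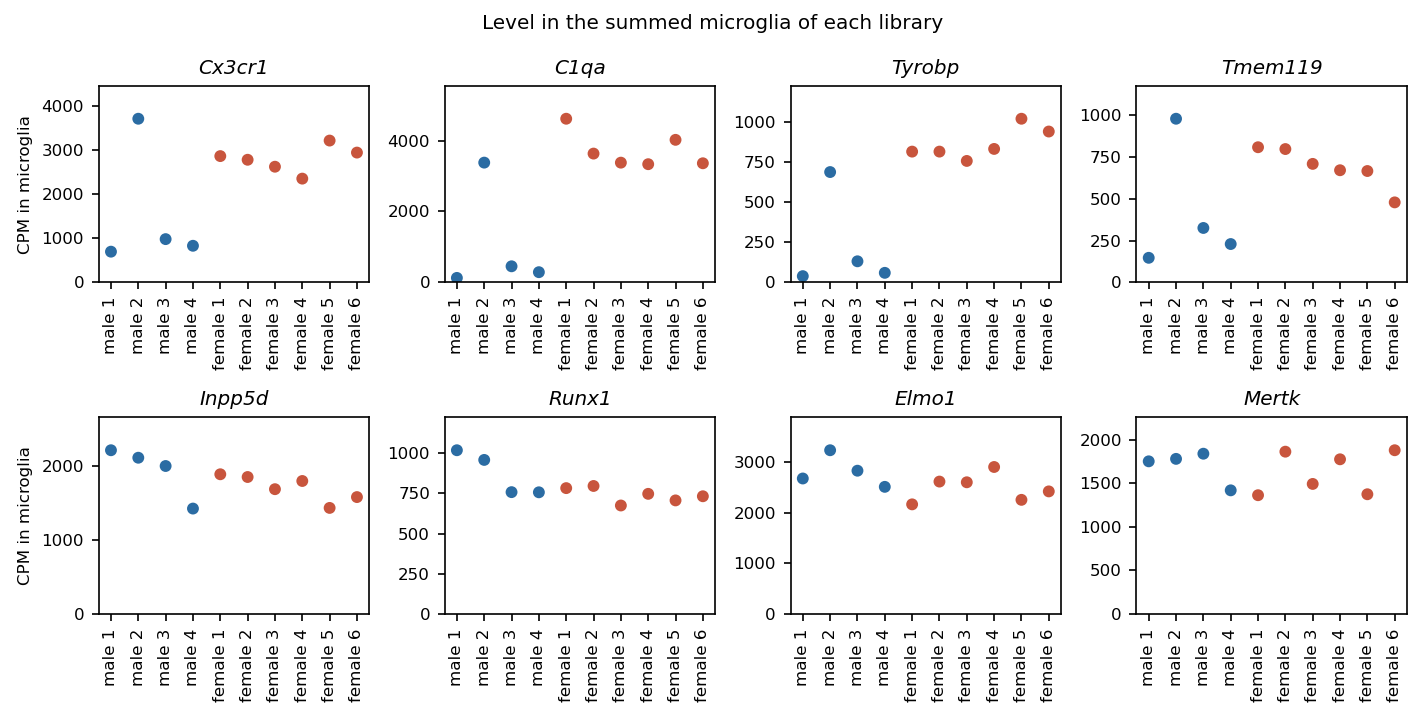
Level of 8 genes in the summed microglia of each library (CPM, linear axis from 0; blue male, red female; 1 point per library). Cx3cr1, C1qa, Tyrobp and Tmem119 were low in male 1, 3 and 4, at 39.2 to 132 CPM for Tyrobp, while Inpp5d, Runx1, Elmo1 and Mertk varied little, at 675 to 1018 CPM for Runx1.

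Clustering the 993 microglia by themselves gave 6 subclusters, which mostly followed the libraries. Subcluster 1, with 319 nuclei, took 268 nuclei from male 4 and 24 from male 1. Subcluster 2, with 240, took 144 from male 3 and 59 from male 4. Subclusters 3 and 4, with 239 and 157 nuclei, held male 2 and the female libraries and differed in depth, with medians of 1716 and 3611 UMIs. Subcluster 5 had 22 nuclei, 21 of them called doublets, with neuronal noncoding RNAs (Meg3, Snhg11) among its leading genes and a median of 11747.5 UMIs. Subcluster 6 had 16 nuclei, 14 of them called doublets, led by the astrocyte genes Gpc5, Slc4a4 and Npas3. No subcluster is therefore given a cell state name. In all, 37 of the 993 microglia were called doublets, 21 of them in male 4.

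Nuclei with several genes of border-associated macrophages were counted in each cell type. The types differed in depth, with a median of 2168 UMIs in microglia, 3006.5 in astrocytes and 11157 in neurons. At least 2 different genes of the border-associated macrophage list were seen in 31 of 993 microglia (3.12%, exact 95% interval 2.13% to 4.40%), against 42 of 179 fibroblasts (23.5%), 897 of 5302 astrocytes (16.9%), 28 of 215 endothelial cells, 314 of 10410 neurons (3.02%) and 6 of 2462 oligodendrocytes (0.244%). After thinning, the count in microglia was 7 in place of 31. Without thinning, at least 3 genes were seen in 7 microglia (0.705%), against 52 astrocytes (0.981%), 8 endothelial cells (3.72%) and 6 fibroblasts (3.35%). Of these 7 microglia, 4 were from male 3, 1 from female 3 and 2 from female 5, and 1 was called a doublet. Male 3 was below every female library in Cx3cr1, as given above, so a pool of libraries is a rough comparison for them. These 7 nuclei held 1671 CPM of Mrc1, the mannose receptor, against 2.97 in the other microglia, and 985 CPM of F13a1 against 2.23, whereas Stab1 was also present in the other microglia, at 180 CPM against 1432 in the 7. They were chosen on these genes. In genes the choice did not use, the same 7 nuclei had no Sall1 UMI against 257 CPM in the others, P2ry12 at 179 against 1199 CPM, Cx3cr1 at 746 against 1959 CPM, and Apoe at 29902 against 539 CPM, with 783 of its 1002 UMIs in the 7 from 1 nucleus of female 5.

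Some transcripts came from single nuclei. All 250 UMIs of S100a8 and all 382 of S100a9, which encode calprotectin of neutrophils, were in 1 nucleus of female 4, with 45 UMIs of Retnlg, 36 of Ngp, 29 of Lcn2 and 24 of Mmp8. That nucleus had 4235 UMIs and no UMI of Cx3cr1, P2ry12 or C1qa. Of 113 UMIs of the chemokine Ccl4, 100 (88.5%) were in 1 nucleus of female 5, and 48 of 59 UMIs of Ccl3 (81.4%) were in 1 nucleus. Of 2454 Apoe UMIs, 783 (31.9%) were in 1 nucleus of female 5, and the 10 nuclei with the most held 49.7%. By contrast the 5301 UMIs of Cx3cr1 were spread over 863 nuclei, and the top nucleus held 0.905%.

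Nuclei with several cell cycle genes were rare. At least 3 cell cycle genes were seen in 7 nuclei (0.705%, exact 95% interval 0.284% to 1.45%), 5 in female 3 and 2 in female 5, against 8 of 473 OPCs (1.69%) and 7 of 10410 neurons (0.0672%). None of them was called a doublet. In genes the choice did not use, their Cx3cr1 level was 2282 CPM against 1940 in the other microglia. Tmem119 was at 733 against 501 CPM, and P2ry12 was lower, at 845 against 1191 CPM. Their Cx3cr1 level lay below that of the summed microglia of female 3 and of female 5, given above. At least 2 class II antigen presentation genes were seen in 6 nuclei (0.604%), from male 2 and 4 and female 1, 3 and 5, against 10 of 179 fibroblasts. In genes the choice did not use, these 6 nuclei had P2ry12 at 300.4 against 1196 CPM in the other microglia, Cx3cr1 at 1051 against 1953 and Apoe at 3755 against 872. At least 5 interferon response genes were seen in 10 nuclei (1.01%), 3 of them in male 2 and 3 in female 5, against 42 of 215 endothelial cells.

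**Figure D4:**
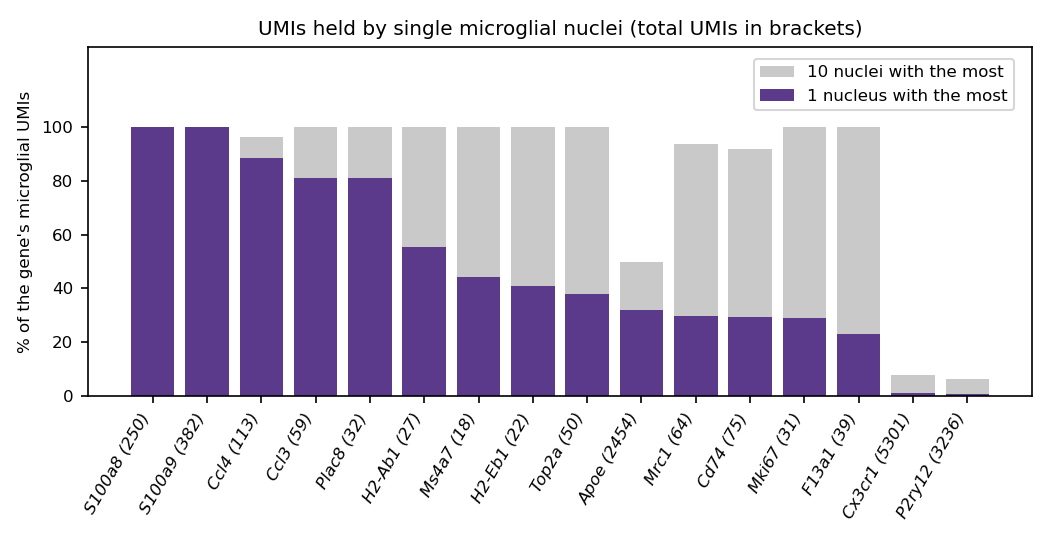
Share of a gene's microglial UMIs (%, linear axis) held by the 1 nucleus with the most (purple) and by the 10 nuclei with the most (grey, behind), with the total UMIs in brackets. S100a8 and S100a9 were held by 1 nucleus, whereas the top nucleus held 0.905% of Cx3cr1.

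Female and male microglia were compared over libraries, 6 against 4. Sex cannot be told apart from the gene annotation on which the libraries were counted, nor from the depth of neurons. The median UMIs per neuron were 12586 to 21085 in the male and 5666 to 9770 in the female libraries, with no overlap. Genes with a span under 10 kb took 12.7% ± 5.40 of microglial UMIs in the male and 20.2% ± 1.80 in the female libraries, and the neuronal markers were highest in male 1 and male 4, as given above. The 6 oligodendrocyte markers summed to 323, 425, 433 and 486 CPM in male 1 to 4 and to 170 to 315 CPM in female microglia, with no overlap. The part of these differences in the calls was not tested. The sex of the libraries was checked with Xist, the RNA of X inactivation, at 1246 ± 193 CPM in female microglia and 0 in the 4 male libraries, and from Uty at 162 ± 4.47 CPM in male and 0 in the 6 female libraries. Among 4706 genes counted in both sexes, 25 (0.531%) were called higher and 18 (0.382%) lower in female microglia (edgeR, adjusted p under 0.05), and for all 43 the libraries of the sexes did not overlap. Over all genes tested, 4.38% had libraries that did not overlap. Of 150 tested genes in the 18 lists described above, 1 was called, Npc2, a lysosomal cholesterol carrier (log2 difference 1.43). This share is near that over all genes tested. Outside these 18 lists, 1 of 2 tested oligodendrocyte markers was called.

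Wdr89 led the genes higher in female microglia. It was at 333 ± 79.0 CPM in female and 16.2 ± 8.79 in male microglia (log2 difference 4.59 ± 0.32, adjusted p = 1.2e-05 in edgeR), and at 204 and 12.7 CPM in the mean of the other types. Acadl, a mitochondrial acyl-CoA dehydrogenase, was at 203 and 19.2 CPM (3.20), and at 144 and 34.9 in the other types. Cnot6, a deadenylase subunit, was at 288 and 36.3 CPM (2.84), Lrrc58 at 264 and 63.2 (2.05) and Spag6l at 94.5 and 2.52 (4.46). Lower in female microglia were Smim14, at 21.0 against 128 CPM (-2.64) and at 22.1 against 140.5 in the other types, Tnrc6a, of the microRNA silencing complex, at 61.4 against 259 CPM (-2.07), Ip6k1 (-2.10), Hspa12a (-2.08) and Gprasp1 (-2.08). Of the 43 genes, 33 had an interaction of the same sign, and 3 were called for it. The 43 were chosen on the microglia sums, which are also part of the interaction. The choice favours a same sign, so this count does not show a difference particular to microglia.

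**Figure D5:**
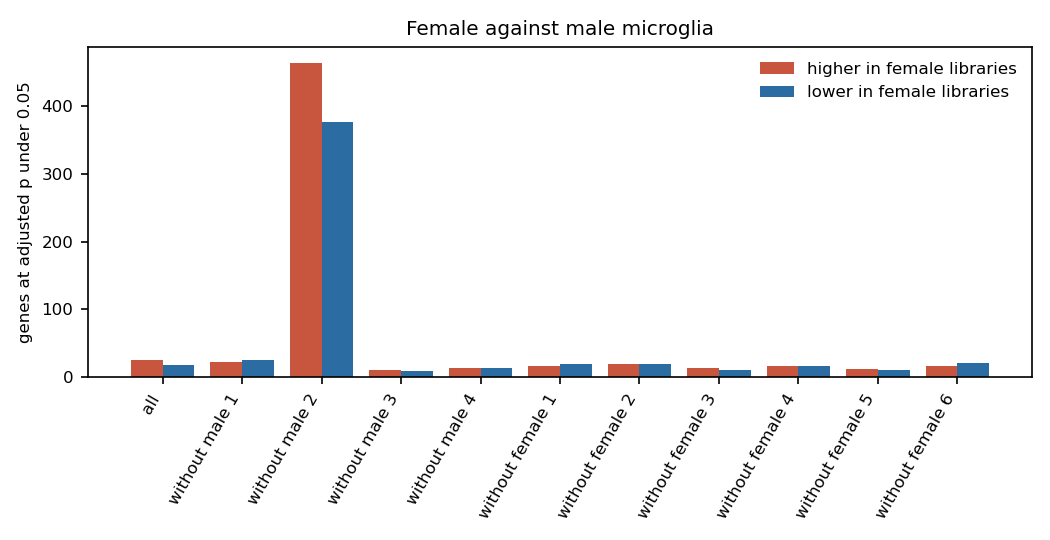
Number of genes at an adjusted p under 0.05 between female and male microglia (vertical axis, linear), higher (red) or lower (blue) in female libraries, with all libraries and with each library left out. The counts were 25 and 18 with all libraries and 464 and 376 without male 2.

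The number of genes called moved with the libraries and the settings. Without male 2, 464 genes were higher and 376 lower in female microglia. With any other library left out the counts were 10 to 23 higher and 9 to 26 lower. The settings also tested unlike numbers of genes, 4706 in the fit above, so the counts are given beside them. In all libraries, 318 of 4894 genes were called when every gene was kept and 198 of 4104 without nuclei called doublets. Without the filter on low counts 139 of 16372 were called, and 108 with DESeq2. After thinning to 1000 UMIs 36 of 1373 genes were called, and in replicates 1 to 4 of each sex 15 of 4391. In nuclei of at most 1% mitochondrial UMIs 1119 genes were tested, and 49 were higher and 2 lower.

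The interaction asks whether the difference between microglia and the other types of the same library itself differed between the sexes, and 13 of 10898 genes (0.119%) were called higher and 8 (0.0734%) lower. H2-DMa, which loads peptides on class II molecules, had the largest interaction (4.42 ± 0.58, adjusted p = 1.6e-06 in edgeR). It was at 9.79, 112.7, 19.9 and 19.5 CPM in male 1 to 4 and at 94.1 ± 30.2 in female microglia, and at 17.3 in male and 3.73 in female other types. Male 2 lay within the female range. Grn, the lysosomal progranulin gene (1.37, adjusted p = 0.0017 in edgeR), Pnrc1 (1.54), Limd2 (2.50) and Cd81, a tetraspanin (1.04), were the others of the 5 with the smallest adjusted p. In the other direction Cd180, a Toll-like receptor relative, was alike in female and male microglia, at 291 and 308 CPM, but at 22.9 and 4.17 CPM in the other types (-3.87, adjusted p = 0.0014 in edgeR). Fyb, an adaptor of integrin signalling, was at 998 and 903 CPM in microglia and at 25.9 and 8.61 in the other types (-2.02). Irak4, a kinase of Toll-like receptor signalling (-1.86), Sema6d (-1.91) and Tmem138 (-3.58) completed the 5. All of these genes but Pnrc1 overlap another gene on the opposite strand, H2-DMa Brd2, Cd180 Mast4, Irak4 Twf1 and Grn Fam171a2 among them, so their counts may be shared between the members of these pairs. Without male 3, 1 gene was called in all, and without male 2, 92 were called higher and 50 lower.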

How the data were processed

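The deposited values are UMI counts per gene and nucleus, which the authors made with Cell Ranger (6.1.1 per the labels, on mm10; the methods name an earlier version) from 10x 3' v3 libraries. The authors removed nuclei with fewer than 200 genes or over 5% mitochondrial UMIs (a deposited percent value) and clusters they held to be doublets, and named the clusters. The microglia, the gene lists and the tests were chosen with earlier results of these data known.

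UMIs were summed per library and cell type (at least 10 nuclei, 73 sums) and fitted with edgeR 4.0.16 (quasi-likelihood, TMM, filterByExpr, library as a block, Benjamini-Hochberg), with DESeq2 1.42.0 as an alternative. Levels are CPM of these sums. Libraries are the replicates and each pools several mice, so p-values measure the spread between pools. Mitochondrial genes, genes under 20 UMIs in either sex and genes whose CPM over all nuclei differed 8-fold or more between the sexes were left out (this kept 17366 of 33502 genes, holding 96.7% of male and 96.6% of female UMIs). A call needed an adjusted p under 0.05, and between cell types also a log2 difference past 0.5. The fits were tested on simulated data: at a true log2 difference of 1 or -1, 100% and 90.0% of changed genes were recovered for microglia against the other types, and 48.0% and 34.0% for female against male microglia.

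Genes were named by rule: Cx3cr1, the 12 largest differences among genes above every other type in every library, the 5 lowest, in each list up to 4 members with the highest CPM and up to 3 with the largest difference in either direction, members needed to account for a list, and 5 genes in each direction for the sex comparison and for the interaction. Other list members and genes of single nuclei were named after their values were seen. Some genes that the rule names are not reported here. Own steps were a doublet caller by simulated doublets per library (183 of 20503 nuclei called), Leiden subclusters, and thinning to 1000 UMIs. The total was 158903494 UMIs.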

Additional observations from a re-analysis of the deposited data

Results flagged for a closer look

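In the 4 male and in the 6 female libraries, 151 genes were looked at for 1 library far from the others, with a gap that chance gives in about 1 in 20 groups, and 18 such values were found. This is near the number that chance gives over so many genes and groups, and after adjustment over them no value was below 0.636. Male 2 was the highest male library in 9 of them. Cx3cr1 was at 3701 CPM against 695 to 979, C1qa at 3378 against 127 to 455, C1qb, another C1q chain, at 2660 against 264 to 588, and Fcgr2b, the inhibitory Fc receptor, at 165 against 29.4 to 45.9. Ifngr1, an interferon gamma receptor subunit, was at 511 CPM against 127 to 181, H2-K1, a class I heavy chain, at 162 against 29.4 to 51.8, Cd200r1 at 105 against 31.7 to 39.2, and Plac8 at 109 against 1.22 to 9.79, with 26 of its 32 UMIs in 1 nucleus. Mki67 was at 3.76 CPM in male 2, which is 1 UMI, against 0.

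Male 1 was above the other male libraries in Kcnk13, at 431 CPM against 232 to 252, and male 3 in the macrophage gene Mrc1, at 75.8 against at most 2.44. Among the female libraries, female 4 was highest in Gm40645 (148 CPM against 62.0 to 86.4) and in S100a9 and S100a8 (2692 and 1762 against 0), which came from 1 nucleus. Female 5 was highest in Apoe, at 3969 against 352 to 1670 CPM, of which 1 nucleus held 783 UMIs. Female 2 was highest in Cd247 (19.0 against 0 to 4.11), and female 1 in the myelin genes Mbp (178 against 63.4 to 93.0) and Mobp (64.6 against 3.45 to 19.0).

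The microglial difference from the other types of the same library differed between the sexes for 10 named genes by the interaction test of edgeR. It was larger in female libraries for H2-DMa (4.42), Limd2 (2.50), Pnrc1 (1.54), Grn (1.37) and Cd81 (1.04), and smaller for Cd180 (-3.87), Tmem138 (-3.58), Fyb (-2.02), Sema6d (-1.91) and Irak4 (-1.86). Sex cannot be told apart from the gene annotation, or from the depth of neurons given above, in any of them.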

How the results depend on the processing

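For microglia against the other types, leaving out 1 library gave 1962 to 2375 genes higher, 2332 to 2698 lower and 4432 to 4909 in all, with 727 to 841 highest against every type. RLE size factors moved the differences of the 135 named genes by a median of -0.13 (1850 higher, 3056 lower) and changed the sign of none of them. With nuclei of at most 1% mitochondrial UMIs, 1263 were lower, 2870 in all and 331 highest. The medians of all lists fell against the highest other type in place of the mean: markers 6.72, transcription factors 1.40, CSF1 3.23, TGF-beta 0.55, purines 0.96, complement 4.61, ITAM 5.18, phagocytosis 1.68, chemokines 2.94, Toll-like receptors 2.95, interferon -1.07, antigen presentation -0.51, disease-associated -2.31, early response -2.32, ion channels 0.29, lipids -1.12, ligands -1.93, restraint 4.21, border-associated macrophages -2.32, monocytes -7.35, T cells -2.89, B cells -8.03, neurons -3.27, astrocytes -5.23, oligodendrocytes -6.52, OPCs -7.67, endothelial cells -10.61, fibroblasts -8.89 and ependymal cells -7.52, beside -1.01 over all genes. Of 2680 single-gene values under alternatives, 10 changed sign: Oasl2 -1.48, Mog 0.026 and Dcn 0.59 with the 1% limit, Jun -0.30 and Dab2 0.13 in male libraries only, and Foxj1 0.026 without male 1, 3 and 4 together (added after seeing the data) and 0.061 in female libraries only. With 1 library left out, Cd47 was -0.11 to 0.049, Dab2 -0.87 to 0.13 and Foxj1 -0.54 to 0.14. Female against male microglia gave 67 higher, 72 lower and 139 in all without a filter, 81 and 108 in all with DESeq2, 103, 95 and 198 without doublets, 176, 142 and 318 with all genes, 49 and 2 with the 1% limit, 44 lower without male 1, 3 and 4 together and 8 lower after thinning to 1000 UMIs. Leaving out 1 library gave 10 to 464 higher, 9 to 376 lower and 19 to 840 in all, the highest without male 2. The number of genes tested between the sexes changed with the setting, as given above. The replicate block over replicates 1 to 4 left 0 higher, 0 lower and 0 in all (edgeR, 390 at an unadjusted p under 0.05; 16 higher and 6 lower with DESeq2), against 8, 7 and 15 without the block in the same libraries (added after seeing the data). Same-numbered samples share only a number, with correlations of -0.27, -0.43, -0.03 and -0.06. The interaction gave 21 lower and 32 in all with DESeq2, 1, 3 and 4 with no replicate block, and 1 to 92 higher, 0 to 50 lower and 1 to 142 in all with 1 library left out. It could not be fitted with the 1% limit or without male 1, 3 and 4. The share of microglia was 2.83% with the 1% limit, 10.4% of non-neurons and 4.83% to 5.31% with 1 library left out, and its sex difference -0.104 to 1.33 points. The log2 depth difference was -0.59 to -0.16. A Cx3cr1 UMI was in 87.2% at 1500 UMIs, 89.0% unthinned and 74.1% to 77.2% with 1 library left out. Nuclei with macrophage genes were 7 at 3 or more genes, 7 after thinning and 22 to 30 with 1 library left out. The causes of these shifts were not tested. Levels of a few CPM rest on few UMIs in male 1.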
